A study of Mus musculus with 12 samples.

Results

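The 10 genes described here encode the thioredoxin system of the cell and the peroxide-scavenging enzymes it recharges: the thioredoxins Txn1 and Txn2, the thioredoxin reductases Txnrd1 and Txnrd2, the sulfiredoxin Srxn1, and the peroxiredoxins Prdx1, Prdx2, Prdx3, Prdx5 and Prdx6. They were chosen by gene name, with earlier results of these data known, and all 10 were found among the 20844 genes present in both deposited count tables. Each passed the filter on low counts in every comparison.

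RNA was sequenced from mouse embryonic fibroblasts taken at embryonic day 13.5 to 14.5, in 12 libraries that form 4 groups of 3. All cells were homozygous for 1 of 2 engineered alleles, and all were infected with adenovirus at a multiplicity of 500 and harvested 4 days later. LSL-Nrf2D29H places a removable stop cassette ahead of a missense change in Nrf2 (gene symbol Nfe2l2). With Cre virus these cells are Nrf2 D29H/D29H, called D29H here, and with empty virus they are labelled Nrf2 knockout. CA-Keap1R554Q is an inducible missense allele of Keap1. With Cre virus these cells are Keap1 R554Q/R554Q, called R554Q here, and with empty virus they are labelled Keap1 wild type. No group received Cre virus without a mutant allele, so the virus and the mutation cannot be told apart in either comparison. In the Nrf2 comparison, removal of the stop cassette and the missense change cannot be told apart either. The labels do not say whether libraries of a group came from separate embryos or cultures, so the p-values measure only the spread between these libraries. Fewer cells that express a gene and less RNA per cell cannot be told apart in such bulk samples.

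NRF2 is a transcription factor that switches on antioxidant genes, and KEAP1 is the adaptor that marks it for degradation. In the thioredoxin system, electrons pass from NADPH to thioredoxin reductase, a selenoprotein, then to thioredoxin, and from there to peroxiredoxins, ribonucleotide reductase and other proteins with reducible disulfides. The cytosol holds Txn1 and Txnrd1, and mitochondria hold Txn2 and Txnrd2. Peroxiredoxins reduce hydrogen peroxide at an active-site cysteine. When that cysteine is oxidised too far, to the sulfinic acid, sulfiredoxin repairs it in the typical 2-cysteine peroxiredoxins, which include Prdx1, Prdx2, Prdx3 and Prdx4. Prdx6 works differently, since it takes its electrons from glutathione.

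Depth ran from 14963004 to 23818477 counted reads, and labelled-knockout replicate 3 was the shallowest, with the other 11 libraries at 19661193 or more. The mitochondrial share of counts was 0.725% to 0.904% in the labelled knockout and 0.982% to 1.77% in D29H, without overlap. It was 0.807% to 1.09% in Keap1 wild type and 0.839% to 1.09% in R554Q. Its part in the results below was not tested. All 8 fibroblast markers were detected, with a summed level of 14618 to 20748 CPM (read counts scaled to a common library size over all 12 libraries). By group it was 19179 to 20748 in the labelled knockout, 16898 to 17636 in D29H, 14791 to 17119 in Keap1 wild type and 14618 to 15896 in R554Q, so it was lower in every D29H library than in every labelled-knockout one. Of the 5 macrophage markers 4 were in both tables, and their sum was 94.8 to 129 CPM in the labelled knockout, 121 to 133 in D29H, 79.1 to 89.7 in Keap1 wild type and 55.3 to 66.8 in R554Q. In the Keap1 comparison 2 further marker sums also separated: that of 3 neural markers was 52.0 to 58.8 CPM in wild type and 60.5 to 67.3 in R554Q, and that of 2 skeletal muscle markers (of 3, with Myod1 not in both tables) was 11.96 to 14.5 and 9.16 to 10.3. The epithelial, endothelial and red blood cell sums overlapped in both comparisons. The part of these markers in the results below was not tested. Nfe2l2 itself was at 46.5, 40.2 and 41.2 CPM in the 3 libraries labelled knockout, against 41.7 to 44.2 in Keap1 wild type, so reads of the targeted gene were present under that label. It was at 49.6, 57.1 and 52.5 CPM in D29H and at 41.9, 34.0 and 46.4 in R554Q. Counts over the whole gene do not show which part of it was transcribed. Nqo1, a much used NRF2 target, was at 7.65 to 10.8 CPM in the labelled knockout, 33.0 to 33.4 in Keap1 wild type, 108 to 134 in D29H and 305 to 378 in R554Q.

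Srxn1, Txnrd1, Prdx1 and Prdx6 rose in both comparisons, and no member fell in either. By edgeR's quasi-likelihood test, with Benjamini-Hochberg adjustment over all genes tested and a threshold of 0.05, 4 of the 10 were higher in D29H than in the labelled knockout, where 3.47% of all genes tested were higher. In R554Q against Keap1 wild type 4 of 10 were higher, where 3.77% of all genes were. None of the 10 was lower in either comparison, where 1.28% and 2.4% of all genes were. The median log2 fold change of the 10 was 0.18 in the first comparison and 0.05 in the second, with medians over all genes of 0.00041 and -0.00099. The other 6 members, which include every mitochondrial enzyme of the set, the cytosolic thioredoxin Txn1 and the cytosolic peroxiredoxin Prdx2, did not pass the test in either comparison.

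Srxn1, the repair enzyme for over-oxidised peroxiredoxins, changed more than any other member. It was at 36.9, 36.9 and 38.4 CPM in the labelled knockout and at 121, 115 and 119 in D29H. In Keap1 wild type it was at 60.9, 57.5 and 59.2 CPM, and in R554Q at 308, 300 and 297. The 4 groups lie apart with no overlap, and the 3 libraries of each group are close together. The fitted rise was 3.15-fold in D29H (log2 fold change 1.66, SE 0.0982, edgeR adjusted p = 1.63e-11) and 5.11-fold in R554Q (2.35, SE 0.0790, edgeR adjusted p = 9.05e-13). Ordered by log2 fold change from the largest rise, Srxn1 stood at place 19 of 14370 genes in the Nrf2 comparison and at place 11 of 14128 in the Keap1 comparison.

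Txnrd1, the cytosolic reductase that recharges Txn1, had the next largest rise. The libraries labelled knockout held 178, 189 and 223 CPM, and those of D29H 451, 450 and 437. Keap1 wild type held 314, 310 and 317 CPM, and R554Q 739, 759 and 819. Again no group overlapped another, and the highest value of the labelled knockout came from its shallow replicate 3. The rise was 2.27-fold in D29H (log2 fold change 1.18, SE 0.114, edgeR adjusted p = 1.90e-07) and 2.47-fold in R554Q (1.31, SE 0.0809, edgeR adjusted p = 6.51e-09). Without labelled-knockout replicate 3 the log2 fold change in D29H was 1.29.

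Among the peroxiredoxins, Prdx1 and Prdx6 rose, by less than Srxn1 and Txnrd1. Prdx1, an abundant cytosolic peroxiredoxin and a substrate of sulfiredoxin, was at 490, 455 and 406 CPM in the labelled knockout and at 715, 658 and 588 in D29H. It was at 569, 638 and 526 CPM in Keap1 wild type and at 862, 756 and 859 in R554Q. Each Cre group lies above its own empty-virus group, although Keap1 wild type and D29H overlap each other. The rise was 1.45-fold in D29H (log2 fold change 0.54, SE 0.119, edgeR adjusted p = 0.0118) and 1.43-fold in R554Q (0.52, SE 0.0924, edgeR adjusted p = 0.00282). In the Nrf2 comparison Prdx1 no longer passed the test without D29H replicate 2 (edgeR adjusted p = 0.0664) or without labelled-knockout replicate 2 (edgeR adjusted p = 0.0571), while its log2 fold change stayed at 0.54 in both fits.

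Prdx6, the peroxiredoxin that uses glutathione, was at 109, 111 and 105 CPM in the labelled knockout and at 176, 149 and 148 in D29H. It was at 200, 222 and 210 CPM in Keap1 wild type and at 373, 319 and 373 in R554Q. No group overlaps another, and D29H replicate 1 is the high one of its group. The rise was 1.45-fold in D29H (log2 fold change 0.54, SE 0.103, edgeR adjusted p = 0.00452) and 1.69-fold in R554Q (0.76, SE 0.0860, edgeR adjusted p = 2.01e-05). Prdx6 was the only one of these 4 whose mean in D29H was below that in Keap1 wild type, at 0.748 of it, whereas Srxn1 in D29H was at 1.99 times its Keap1 wild-type mean, Txnrd1 at 1.42 times and Prdx1 at 1.13 times.

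**Figure D1:**
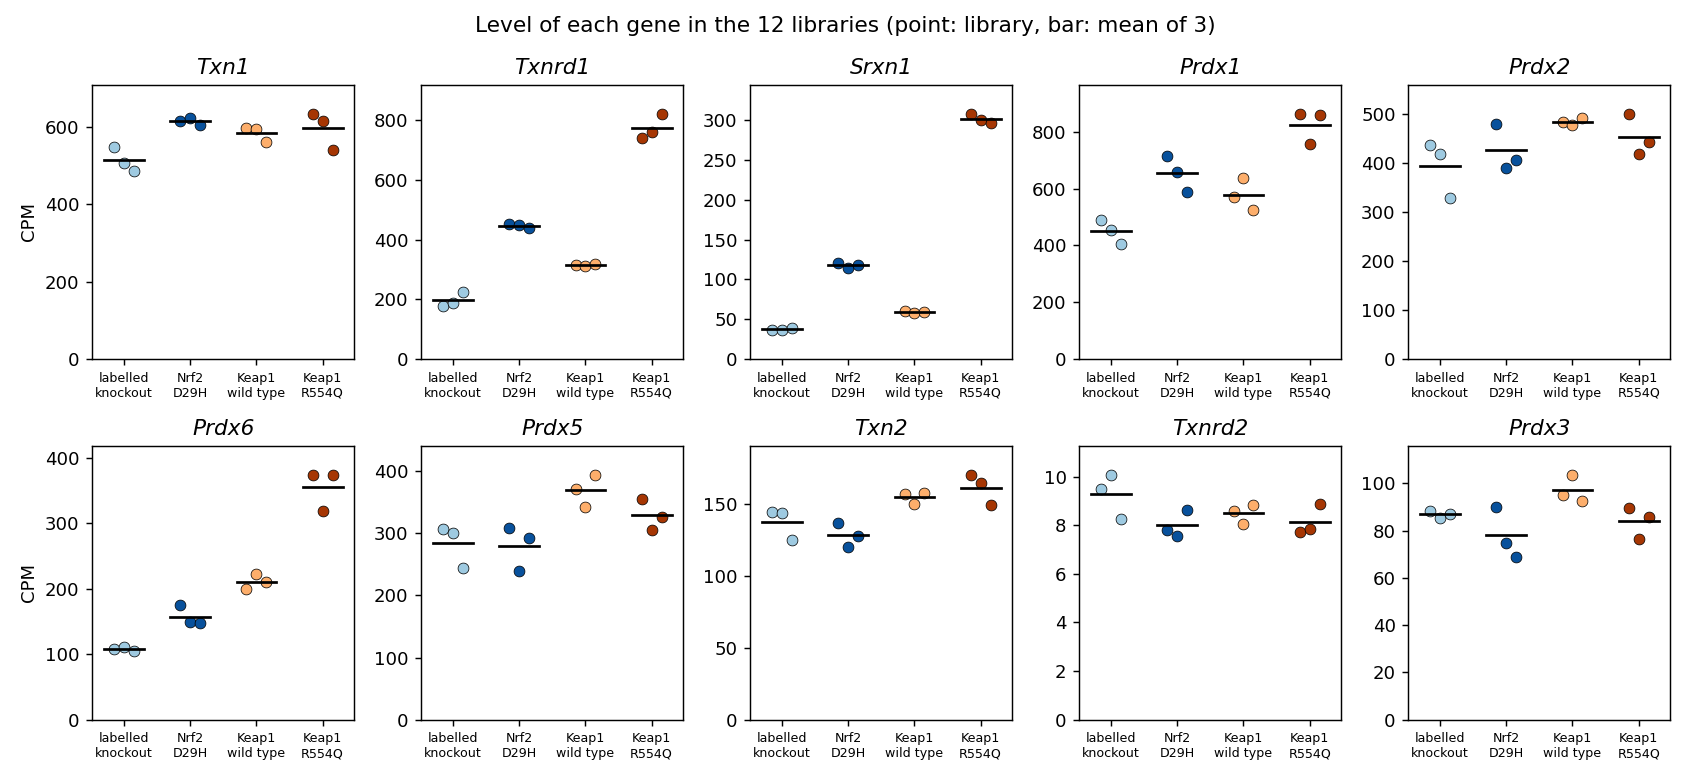
Level of each gene in CPM (linear axis from 0, a separate scale for each gene) in the 4 groups; points are libraries and bars are means of 3 libraries. For Srxn1 the R554Q libraries sit at 297 to 308 CPM and the labelled-knockout libraries at 36.9 to 38.4, while Txn1 stays between 486 and 633 CPM in all 12.

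Because Srxn1, Txnrd1 and Prdx1 rose together, the DNA just before their start sites is shown, beside that of Txn1, which did not pass the test. The sequences are from RefSeq (GRCm38.p6), and each ends before the first base of any annotated exon of its gene that lies in the window. Searched on both strands of the 250 bases before the RefSeq start were TGACNNNGC and TGAGNNNGC, which are forms of the core of the antioxidant response element that NRF2 can bind, and TGAGTCA, a motif of the AP-1 factors, which can overlap both. Capitals mark the matches, and overlapping matches form a single run.
Srxn1, chr2:152105274-152105515, plus strand: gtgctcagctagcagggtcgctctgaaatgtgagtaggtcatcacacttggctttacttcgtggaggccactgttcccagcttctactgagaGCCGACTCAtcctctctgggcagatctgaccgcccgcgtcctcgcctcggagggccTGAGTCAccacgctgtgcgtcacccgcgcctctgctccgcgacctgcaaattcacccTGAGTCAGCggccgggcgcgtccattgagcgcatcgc
Txnrd1, chr10:82858956-82859178, plus strand: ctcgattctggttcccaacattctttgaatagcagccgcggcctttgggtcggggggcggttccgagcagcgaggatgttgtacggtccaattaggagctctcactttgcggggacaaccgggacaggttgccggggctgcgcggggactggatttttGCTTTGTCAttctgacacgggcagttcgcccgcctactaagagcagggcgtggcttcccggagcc
Prdx1, chr4:116685349-116685543, plus strand: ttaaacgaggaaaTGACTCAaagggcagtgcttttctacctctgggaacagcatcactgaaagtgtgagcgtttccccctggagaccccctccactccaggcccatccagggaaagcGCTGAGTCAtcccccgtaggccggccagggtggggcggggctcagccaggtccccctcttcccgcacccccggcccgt
Txn1, chr4:57956412-57956661, minus strand: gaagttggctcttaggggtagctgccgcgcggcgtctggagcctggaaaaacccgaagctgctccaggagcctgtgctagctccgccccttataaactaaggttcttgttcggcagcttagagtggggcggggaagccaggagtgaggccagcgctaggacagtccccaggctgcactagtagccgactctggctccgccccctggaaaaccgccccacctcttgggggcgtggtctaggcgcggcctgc

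In the Srxn1 window TGAGTCAGC lies 45 to 37 bases before the start and contains TGAGTCA, a further TGAGTCA lies 102 to 96 bases before it, and TGAGTCGGC lies on the minus strand at 158 to 150. The Prdx1 window holds TGACTCAGC on the minus strand at 133 to 125 bases before the start, where it overlaps TGAGTCA at 131 to 125, and a second TGAGTCA on the minus strand at 237 to 231. Txnrd1 has 3 windows before separate start sites, and the printed one is number 2 along the chromosome. It holds TGACAAAGC on the minus strand at 92 to 84 bases before its start, and the other Txnrd1 windows hold no match. The printed Txn1 window has no match. Windows were held for 9 of the 10 members, all but Prdx6, and 4 of their 11 windows had at least 1 match, the fourth being that of Txn2 with TGAGAGGGC on the minus strand. Over all 32851 windows of 250 bases, 10.2% hold TGACNNNGC, 14.4% hold TGAGNNNGC, 4.46% hold TGAGTCA and 26.0% hold any of them. A match describes the letters only and shows no binding.

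Txn1, the electron carrier of the cytosol, did not pass the test in either comparison. It was at 548, 506 and 486 CPM in the labelled knockout and at 616, 623 and 604 in D29H, so these groups do not overlap. With Txn1, 5 of the 10 members had all D29H libraries above all labelled-knockout libraries, as had 11.9% of all genes tested, and none had the reverse order, which 13.9% of all genes had. The Txn1 log2 fold change was 0.26 (95% interval 0.03 to 0.49, edgeR adjusted p = 0.171). In Keap1 wild type Txn1 was at 598, 596 and 562 CPM, within the range of the R554Q libraries at 633, 617 and 541 (log2 fold change 0.03, interval -0.14 to 0.21, edgeR adjusted p = 0.844). Txn1 was the most abundant member per unit of length, with 489 RPKM (CPM per kilobase of gene length) in the labelled knockout and 584 in D29H. Its reductase Txnrd1 was at 57.6 and 131 RPKM in the same groups.

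Prdx2, the other abundant cytosolic peroxiredoxin and also a substrate of sulfiredoxin, did not pass the test in either comparison. Libraries labelled knockout held 435, 417 and 329 CPM and D29H libraries 480, 390 and 406, so these groups overlap. Keap1 wild type held 482, 476 and 492 CPM and R554Q 499, 418 and 443. The log2 fold change was 0.11 in D29H (95% interval -0.15 to 0.36, edgeR adjusted p = 0.630) and -0.09 in R554Q (-0.27 to 0.09, edgeR adjusted p = 0.558). Without the shallow labelled-knockout replicate 3, which holds the lowest Prdx2 value of all 12 libraries, the log2 fold change in D29H was 0.00068. Prdx2 overlaps Rnaseh2a on the opposite strand by 181 bases, and the count of Rnaseh2a was 7.24% to 11.3% of that of Prdx2. Whether counting used strand is not given in the sources used here, so reads there cannot be assigned with certainty.

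Prdx5, an atypical peroxiredoxin found in mitochondria, peroxisomes and cytosol, was at 244 to 307 CPM in the labelled knockout, 238 to 309 in D29H, 342 to 393 in Keap1 wild type and 305 to 355 in R554Q. Each Cre group overlapped its own empty-virus group. The log2 fold change was -0.02 in D29H (95% interval -0.27 to 0.22, edgeR adjusted p = 0.932) and -0.16 in R554Q (-0.34 to 0.02, edgeR adjusted p = 0.261). Prdx5 overlaps Trmt112 on the opposite strand by 409 bases, and the Trmt112 count was 8.88% to 15.4% of that of Prdx5.

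None of the mitochondrial members passed the test in either comparison. Prdx3, the mitochondrial peroxiredoxin that sulfiredoxin can repair, was at 88.3, 85.2 and 87.1 CPM in the labelled knockout and at 90.1, 74.9 and 68.7 in D29H. It was at 94.99, 103 and 92.7 CPM in Keap1 wild type and at 89.7, 76.5 and 85.7 in R554Q, so all R554Q libraries lie below all wild-type ones. In the Keap1 comparison 4 of 10 members had no overlap in the upward direction, where 13.2% of all genes did. Prdx3 was the 1 member of 10 with the downward order, which 14.2% of all genes tested had, and it did not pass the test (log2 fold change -0.20, 95% interval -0.38 to -0.02, edgeR adjusted p = 0.149). When length and GC content were offset, a choice made after seeing the data, the value was -0.05 (edgeR adjusted p = 0.747). Over the 6 fits that left out 1 library it was -0.25 to -0.14. The same offsets gave 0.18 for Txn1 (edgeR adjusted p = 0.152), 0.68 for Prdx1 and -0.22 for Prdx5 in this comparison. In D29H the log2 fold change of Prdx3 was -0.16 (interval -0.38 to 0.06, edgeR adjusted p = 0.373), and it was -0.28 without D29H replicate 1 and -0.07 without D29H replicate 3.

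Txn2, the mitochondrial thioredoxin, was at 125 to 145 CPM in the labelled knockout and 121 to 137 in D29H, with a log2 fold change of -0.11 (95% interval -0.32 to 0.10, edgeR adjusted p = 0.557). It was at 150 to 158 CPM in Keap1 wild type and 150 to 170 in R554Q, with a log2 fold change of 0.06 (interval -0.10 to 0.23, edgeR adjusted p = 0.657). Txnrd2, the mitochondrial reductase, was the member with the lowest level, at 7.54 to 10.1 CPM over all 12 libraries. Its log2 fold change was -0.22 in D29H (interval -0.51 to 0.06, edgeR adjusted p = 0.340) and -0.06 in R554Q (interval -0.32 to 0.21, edgeR adjusted p = 0.829). Txnrd2 values are uncertain, and its SE was the largest of the 10 in both comparisons.

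Of the 10 members, Srxn1 alone passed the test of a difference in response between the alleles. In a fit of all 12 libraries its log2 fold change in D29H was lower than that in R554Q by a difference of -0.69 (SE 0.110, 95% interval -0.92 to -0.46, edgeR adjusted p = 0.0402). Of all 14794 genes tested 0.0203% passed this test in that direction and 0.00676% in the other. The call was lost in 7 of the 12 fits that left out 1 library: without D29H replicate 2 or 3, labelled-knockout replicate 2, R554Q replicate 1, or any of the 3 Keap1 wild-type replicates. The difference was -0.73 to -0.67 over these 12 fits, and the edgeR adjusted p 0.0167 to 0.192. The other members did not pass, and their intervals bound the difference: -0.39 to 0.15 for Txnrd1, -0.28 to 0.33 for Prdx1, -0.48 to 0.06 for Prdx6 and -0.03 to 0.49 for Txn1. The responses of the alleles are set against unlike controls, labelled knockout and Keap1 wild type. Allele, culture and table also vary together, so the source of a difference cannot be told apart.

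The 2 empty-virus groups also differed in these genes. Between the labelled knockout and Keap1 wild type, allele, culture and table vary together and cannot be told apart, and 10.1% of all genes tested were lower in the labelled knockout. There 5 of 10 members were lower and none was higher, where 9.58% of all genes were: Prdx6 (log2 fold change -0.96, SE 0.0934, edgeR adjusted p = 1.11e-07), Txnrd1 (-0.67), Srxn1 (-0.67), Prdx5 (-0.38) and Prdx1 (-0.36). Every labelled-knockout library was below every Keap1 wild-type library for 9 of 10 members, an order that 19.3% of all genes had (17.9% had the reverse), and Txnrd2 was the exception. Without labelled-knockout replicate 3, or without Keap1 wild-type replicate 1, 3 members passed rather than 5, since Prdx1 and Prdx5 were lost. Prdx1 was also lost without labelled-knockout replicate 2 or without Keap1 wild-type replicate 2, and Prdx5 without Keap1 wild-type replicate 3. Prdx2 was close to the threshold (-0.30, edgeR adjusted p = 0.0585), and passed in 5 of the other settings.

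R554Q was higher than D29H for 5 of 10 members and lower for none. Here too allele, culture and table cannot be told apart, and 13.4% of all genes tested were higher in R554Q and 13.1% lower. The log2 fold change was 1.35 for Srxn1 (SE 0.0771, edgeR adjusted p = 1.48e-11), 1.17 for Prdx6, 0.79 for Txnrd1, 0.34 for Prdx1 and 0.33 for Txn2. For the same 5 members the groups do not overlap, as for 19.2% of all genes in that direction and 18.2% in the other. Without R554Q replicate 1, Prdx1 and Txn2 no longer passed, which left 3. Prdx1 was also lost without D29H replicate 2, D29H replicate 3 or R554Q replicate 3. This comparison uses the same Cre libraries as the 2 comparisons above.

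**Figure D2:**
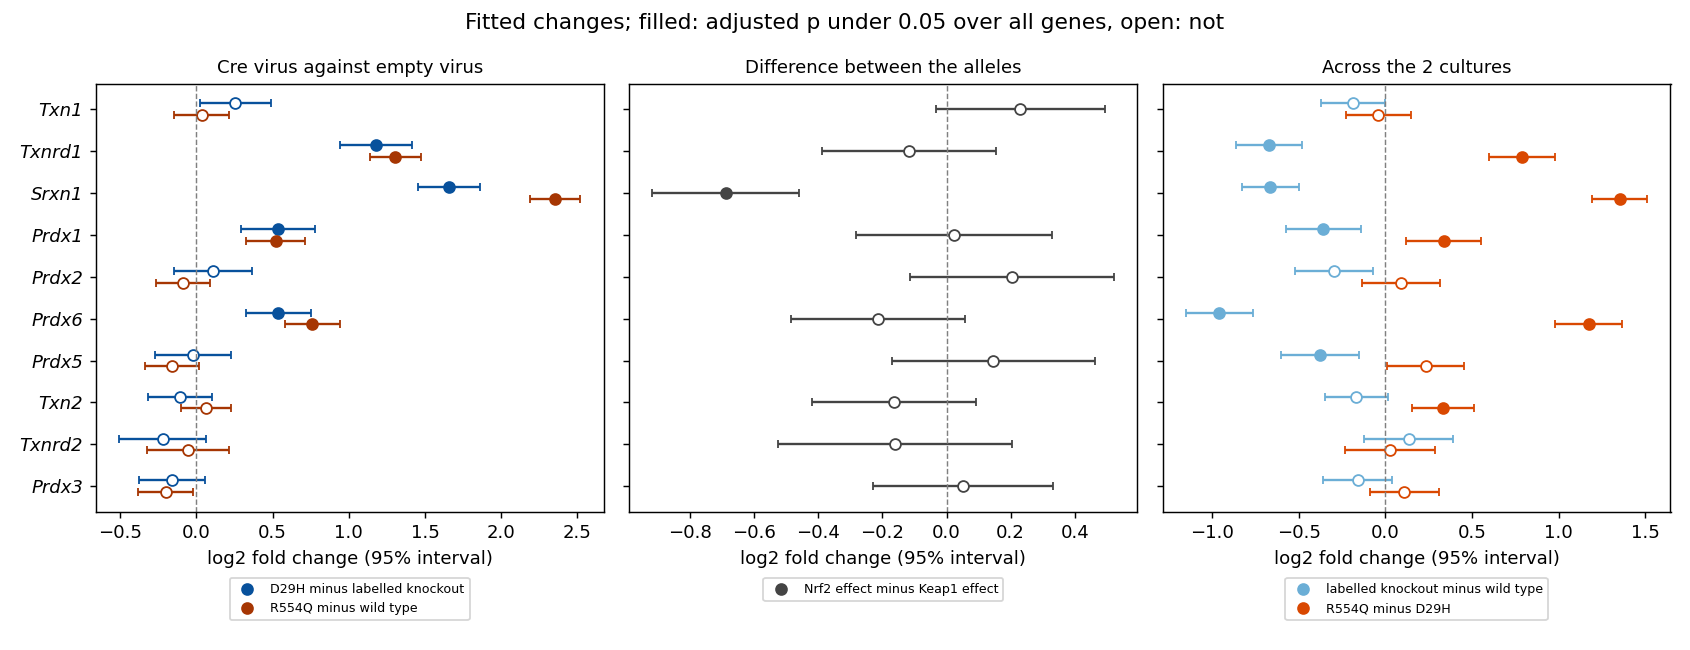
Log2 fold change of each gene (x axis) with its 95% interval; the left panel sets Cre virus against empty virus for each allele, the middle panel gives the difference between these 2 effects, and the right panel sets the groups of the 2 alleles against each other. Filled points passed an adjusted p of 0.05 over all genes: 4 genes in each comparison on the left, Srxn1 in the middle, and 5 genes in each comparison on the right.

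Ratios within a library show how the balance between members shifted, and are given per unit of gene length, as descriptions with no test. Srxn1 per Txnrd1 was 0.233 ± 0.0219 (SD, n = 3) in the labelled knockout and 0.229 ± 0.00568 in Keap1 wild type. It was 0.321 ± 0.0102 in D29H and 0.476 ± 0.0328 in R554Q, so Srxn1 gained on Txnrd1 in both Cre groups. The summed RPKM of the 3 members that it repairs, Prdx1, Prdx2 and Prdx3 (without Prdx4, which is no member), per RPKM of Srxn1 was 37.6 ± 4.82 in the labelled knockout, 29.4 ± 1.83 in Keap1 wild type, 14.3 ± 1.25 in D29H and 6.50 ± 0.437 in R554Q. These 4 ranges do not overlap.

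The cytosolic Txnrd1 and Prdx1 also gained on their mitochondrial counterparts. Txnrd1 per Txnrd2 was 12.01 ± 2.69 in the labelled knockout, 20.6 ± 0.778 in Keap1 wild type, 31.3 ± 2.68 in D29H and 53.0 ± 1.21 in R554Q, with Txnrd2 uncertain as stated. Prdx1 per Prdx3 was 3.34 ± 0.298, 3.83 ± 0.162, 5.43 ± 0.281 and 6.34 ± 0.135 in the same order. Txn1 per Txn2 was 7.27 ± 0.385 in the labelled knockout, 7.36 ± 0.408 in Keap1 wild type and 7.19 ± 0.128 in R554Q, which overlap, and 9.36 ± 0.656 in D29H. Txnrd1 per Txn1, the reductase relative to its substrate, was 0.119 ± 0.0210 in the labelled knockout, 0.165 ± 0.00734 in Keap1 wild type, 0.224 ± 0.00168 in D29H and 0.401 ± 0.0571 in R554Q.

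The summed level of the 5 peroxiredoxins was 700 ± 73.2 RPKM in the labelled knockout, 821 ± 80.1 in D29H, 908 ± 14.5 in Keap1 wild type and 1026 ± 78.8 in R554Q. The Cre groups lie above their own empty-virus groups in all libraries, and the D29H range, 772 to 913 RPKM, overlaps that of Keap1 wild type, 898 to 924. Prdx1 made up 28.1% ± 0.689 of the sum in the labelled knockout and 27.7% ± 2.32 in Keap1 wild type, against 34.8% ± 2.12 in D29H and 35.1% ± 0.841 in R554Q. Prdx6 made up 6.52% ± 0.564 in the labelled knockout, 8.04% ± 0.0683 in D29H, 9.72% ± 0.366 in Keap1 wild type and 14.5% ± 0.456 in R554Q. Prdx1 per Prdx2, the 2 abundant cytosolic peroxiredoxins, went from 0.809 ± 0.0535 in the labelled knockout to 1.08 ± 0.0893 in D29H and from 0.841 ± 0.0958 in Keap1 wild type to 1.28 ± 0.0750 in R554Q.

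**Figure D3:**
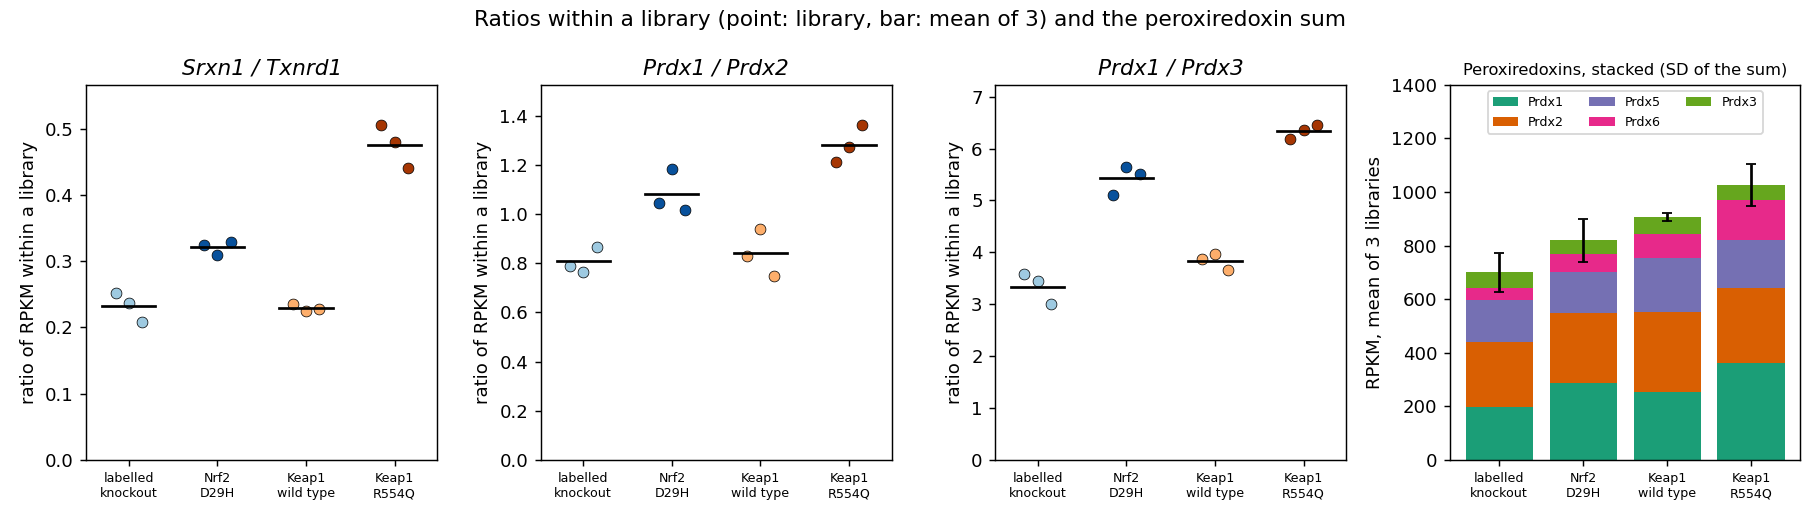
Ratios of RPKM within a library for Srxn1 to Txnrd1, Prdx1 to Prdx2 and Prdx1 to Prdx3 (points are libraries, bars are means of 3), and the mean RPKM of the 5 peroxiredoxins stacked, with the SD of their sum over 3 libraries. The ratio of Srxn1 to Txnrd1 is 0.229 to 0.233 on average in the empty-virus groups, 0.321 in D29H and 0.476 in R554Q. The stack is at 700 RPKM in the labelled knockout and 821 in D29H, and at 908 in Keap1 wild type and 1026 in R554Q.

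Single libraries stood high or low for several members at once. D29H replicate 1 was the highest of its group for 8 of the 10 members, all but Txn1 and Txnrd2, and labelled-knockout replicate 3 the lowest of its group for Prdx1, Prdx2, Prdx5, Prdx6, Txn1, Txn2 and Txnrd2. The share of all genes with the same order was not counted, so this cannot be called particular to the members. Srxn1 varied least, with deviations from its group mean within 0.042 on the log2 scale in all 12 libraries, whereas those of Prdx2 ran from -0.25 to 0.18. By Pearson correlation of log2 CPM over the 12 libraries, among 9212 genes, the patterns most like that of Srxn1 were those of Gclc (0.993), Pgd (0.992), Gclm (0.989), Txnrd1 (0.986) and Tshz1 (0.986). Those most like Txnrd1 were Tshz1 (0.990), Srxn1 (0.986), Ddit4l (0.984), Nqo1 (0.982) and Pgd (0.982). These values describe likeness over 4 group levels in shared libraries.

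Other genes of thioredoxin and peroxide chemistry were counted in fixed lists, all of whose genes were tested. Of 18 relatives of the thioredoxins and peroxiredoxins none passed the test in D29H, and 2 were lower in R554Q. The shares of all genes to set beside this list and the next ones are 3.47% upward and 1.28% downward for D29H, and 3.77% and 2.4% for R554Q. The 2 relatives lower in R554Q were Tmx1, a thioredoxin-like protein of the endoplasmic reticulum (log2 fold change -0.46, SE 0.100, edgeR adjusted p = 0.0121), and Txnip, the inhibitor that binds thioredoxin (-0.29, SE 0.0812, edgeR adjusted p = 0.0438). Their log2 fold changes in D29H were -0.33 (edgeR adjusted p = 0.0651) and -0.25 (edgeR adjusted p = 0.156). The median log2 fold change of the 18 was -0.15 in D29H and -0.20 in R554Q, with medians over all genes of 0.00041 and -0.00099. Prdx4, the peroxiredoxin of the endoplasmic reticulum, and Txnrd3, the reductase known from testis, passed in neither comparison.

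The parallel glutathione system moved in part. Of 9 glutaredoxin and glutathione genes 3 were higher in both comparisons, where 3.47% and 3.77% of all genes were, and none was lower. Gclc and Gclm, the subunits of the rate-limiting enzyme of glutathione synthesis, had log2 fold changes of 1.24 (SE 0.104) and 1.08 (SE 0.0991) in D29H and of 1.56 (SE 0.0821) and 1.60 (SE 0.0960) in R554Q. Gsr, glutathione reductase, had 0.43 (SE 0.106, edgeR adjusted p = 0.0202) and 0.83 (SE 0.0905, edgeR adjusted p = 1.26e-05). The 4 glutaredoxins and the peroxidases Gpx1 and Gpx4 did not pass.

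NADPH, the electron source of both systems, is made in part by the pentose phosphate pathway. Of 8 genes of NADPH supply 2 were higher in D29H, where 3.47% of all genes were, and 3 in R554Q, where 3.77% were, and none was lower in either. G6pdx, its first dehydrogenase, had log2 fold changes of 0.44 (edgeR adjusted p = 0.0234) and 0.68 (edgeR adjusted p = 0.000589), and Pgd, its second, of 0.77 (edgeR adjusted p = 4.64e-05) and 1.22 (edgeR adjusted p = 2.29e-08). Taldo1, a transaldolase of the same pathway, passed in R554Q (0.76, edgeR adjusted p = 1.20e-05) and had 0.22 in D29H (edgeR adjusted p = 0.219). The difference between the alleles passed the test for no gene of this list.

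Among 11 thioredoxin clients, Rrm1, the large subunit of ribonucleotide reductase, was lower in D29H (log2 fold change -0.47, SE 0.117, edgeR adjusted p = 0.0215). In R554Q it had -0.13 (edgeR adjusted p = 0.494), and no client passed there. Of 9 genes for making selenoproteins such as Txnrd1, only Pstk, a kinase that acts on the transfer RNA, passed. It was higher in D29H (0.39, SE 0.111, edgeR adjusted p = 0.0432) and had -0.16 in R554Q (edgeR adjusted p = 0.334). None of the 3 sestrins passed in either comparison.

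In the authors' deposited table the same 4 members had an adjusted p under 0.05 in each comparison. Their log2 fold changes in the authors' deposited table were 0.475 to 1.52 for D29H and 0.473 to 2.20 for R554Q.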

How the data were processed

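Libraries were grouped by the titles, genotypes and treatments in the labels. The authors deposited 2 tables, 1 per allele, whose read counts are raw, per the file headers. FPKM, a mean signal per group, log2 fold changes and p-values were deposited by the authors in the same tables, and only their log2 fold changes and calls by adjusted p-value were quoted. STAR, DESeq2 and mm10 are named, with no role, per the submitters' processing notes, and the counting tool and its use of strand are not given in the sources used here.

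The main tests used edgeR 4.0.16 in R 4.3.3 (filterByExpr, TMM, quasi-likelihood test), on the 6 libraries of a table for D29H against labelled knockout and R554Q against wild type, and on all 12 for the difference between the alleles and the comparisons across alleles. Each fit covered all genes passing the filter, and p-values were adjusted over all of them. The rise or fall of a gene is called at an adjusted p under 0.05. Intervals are at 95%. CPM and RPKM share 1 TMM scale over 12 libraries, and RPKM divides by the listed gene length. Alternatives were scaling by RLE or the upper quartile, no filter, a mean of at least 50 counts, DESeq2 1.42.0, limma 3.58.1, a replicate block, all 12 libraries in 1 fit, each library left out, and, chosen after seeing the data, offsets for GC content and length. The tests were also run on simulated counts, whose outcome is not given here. Replicates differed by more than sampling noise (chi-square per degree of freedom 3.87 to 18.2). The named genes are the 10 members, Nfe2l2, Nqo1, the 6 lists (those past the threshold, and examples) and the genes most like Srxn1 and Txnrd1, among genes with a mean of at least 10 CPM. A further result is not reported here. The members and lists were chosen with earlier results of these data known.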

Additional observations from a re-analysis of the deposited data

Results flagged for a closer look

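The response of Srxn1 differed between the alleles by the test of the difference itself. Its log2 fold change in D29H against labelled knockout was lower than that in R554Q against Keap1 wild type by a difference of -0.69 (SE 0.110, edgeR adjusted p = 0.0402, 12 libraries). All 3 D29H libraries and all 3 R554Q libraries were above their own controls, so the direction is shared. The sizes are set against unlike controls, and allele, culture and table vary together, so the source of the difference cannot be told apart. The call was lost in 7 of 12 fits that left out 1 library.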

How the results depend on the processing

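Over the 5 comparisons, 780 values of single members were compared between the reported fit and its alternatives: 750 kept their direction and their side of the threshold, or were uncalled in both, 22 lost the call, 8 gained it, and none that was called changed sign. Among the 750 were 18 uncalled values that changed sign and stayed uncalled. In the Keap1 comparison all 150 values kept their side, and in the Nrf2 comparison 148 of 150 did. The number of members higher in D29H was 3 to 4 when 1 library was left out. For the difference between the alleles, the number of members lower was 0 to 1 when 1 library was left out, and 0 with the replicate block (Srxn1 -0.69, edgeR adjusted p = 0.182). The number of members lower in the labelled knockout than in Keap1 wild type was 3 to 6, and the number higher in R554Q than in D29H 3 to 6, when 1 library was left out. The cause of these losses was not tested. Same-numbered replicates deviated together with correlations of -0.189 to 0.119 over genes, so the numbers were not taken to pair the samples, and no other call on a member was lost under the block. Under the block Prdx2 was lower in the labelled knockout than in Keap1 wild type (edgeR adjusted p = 0.0354). Over all genes, leaving out D29H replicate 3 left 72 higher and 10 lower calls in the Nrf2 comparison, and leaving out D29H replicate 1 gave 1194 and 998. In the Keap1 comparison R554Q replicate 1 left out gave 186 and 52, and R554Q replicate 3 left out 1530 and 1342. Against the reported 498 and 184, and 533 and 339, the count over all genes therefore rests on single libraries. Txnrd2, the member with the fewest reads, had the largest SE of the 10 in both allele comparisons (0.139 and 0.128).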
